A study of Homo sapiens with 6 samples.

Results

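Small nucleolar RNA host genes are transcribed as spliced, polyadenylated RNAs that carry small nucleolar RNAs (snoRNAs) inside their introns. The set described here was every gene in the expression table whose current symbol is SNHG followed by a number, together with GAS5, ZFAS1, EPB41L4A-AS1 and TAF1D. The rule found 32 genes among the 57500 Ensembl gene identifiers of the table. RNA was measured in HEK293T cells, a line derived from human embryonic kidney cells that carries the SV40 large T antigen, by poly(A)-selected RNA sequencing. The 3 Mock libraries (genotype WT, treatment "Vector Control") were compared with 3 PRMT1 OV libraries, from cells transfected with a pcDNA3 plasmid that holds PRMT1, the main asymmetric arginine methyltransferase, using PolyJet. Both groups were grown in DMEM with serum, and the treatment text describes a transfection for PRMT1 OV only, naming no plasmid for the vector control. It is not stated if the replicates were separate cultures, so p-values reflect only library-to-library spread, possibly of technical origin.

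After splicing, an intron that holds a snoRNA is opened by the debranching enzyme and trimmed by exonucleases until the snoRNA and its bound proteins remain. Box C/D snoRNAs guide ribose methylation of ribosomal RNA, box H/ACA snoRNAs guide pseudouridylation, and the related scaRNAs act on spliceosomal RNAs in Cajal bodies. The spliced exons of many of these genes start with a run of pyrimidines, as ribosomal protein mRNAs do, have short open reading frames, and are known to be destroyed by nonsense-mediated decay (NMD) once they are translated. The level of a host RNA in a poly(A) library is a measure of these exons and not of the snoRNAs.

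The 32 genes lie on 15 chromosomes, and GENCODE 29 gives 30 of them a noncoding type. TAF1D, a subunit of the SL1 initiation factor of RNA polymerase I, is protein coding, and SNHG32 is listed there as the coding gene C6orf48. By the names of the snoRNA genes inside them, 12 members hold box C/D snoRNAs, 10 hold box H/ACA snoRNAs, 3 hold both and 4 hold a scaRNA, whereas 3, GAS5 among them, have no snoRNA entry with such a name in that annotation. GAS5 is known as a host of box C/D snoRNAs.

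The start sites are shown because the pyrimidine start is the sequence feature this group of genes is known for, and because a TATA-like element preceded the start in some members. RefSeq (GRCh38.p14) promoter windows of 300 bases were matched by symbol for 28 of the 32 members, and SNHG15, SNHG25, SNHG6 and SNHG9 had no entry. In each sequence below, 100 bases run from 60 bases before the annotated start to 40 bases from it, 5′ to 3′ on the gene's strand, and capitals mark TATAA found 40 to 20 bases before the start and the longest run of at least 7 pyrimidines within 30 bases of the start.
SNHG12 (chr1:28581834-28581933, minus strand): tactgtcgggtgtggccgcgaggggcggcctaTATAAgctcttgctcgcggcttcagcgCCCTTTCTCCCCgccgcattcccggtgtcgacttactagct
ZFAS1 (chr20:49278582-49278681, plus strand): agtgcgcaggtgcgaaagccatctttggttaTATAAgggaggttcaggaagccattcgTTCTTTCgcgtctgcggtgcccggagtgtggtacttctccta
SNHG8 (chr4:118278702-118278801, plus strand): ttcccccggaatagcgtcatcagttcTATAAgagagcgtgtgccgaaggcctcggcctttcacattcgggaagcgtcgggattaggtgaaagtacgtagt
SNHG5 (chr6:85678694-85678793, minus strand): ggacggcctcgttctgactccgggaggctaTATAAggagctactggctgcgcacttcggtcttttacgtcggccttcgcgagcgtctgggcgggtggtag
SNHG7 (chr9:136728145-136728244, minus strand): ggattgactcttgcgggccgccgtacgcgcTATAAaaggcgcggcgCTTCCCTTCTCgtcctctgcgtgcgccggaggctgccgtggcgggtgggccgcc
SNHG19 (chr16:2155319-2155418, minus strand): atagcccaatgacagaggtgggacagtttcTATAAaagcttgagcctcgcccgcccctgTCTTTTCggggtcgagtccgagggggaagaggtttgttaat
SNHG17 (chr20:38435289-38435388, minus strand): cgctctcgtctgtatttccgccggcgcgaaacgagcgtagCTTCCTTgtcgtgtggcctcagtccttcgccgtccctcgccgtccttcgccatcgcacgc
SNHG11 (chr20:38446594-38446693, plus strand): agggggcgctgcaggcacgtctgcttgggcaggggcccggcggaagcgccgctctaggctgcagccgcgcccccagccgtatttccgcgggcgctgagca

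On the gene's strand, TATAA in that position was found in 6 of the 28 windows (21.4%), those of SNHG12, ZFAS1, SNHG8, SNHG5, SNHG7 and SNHG19, against 3.91% of the 35116 RefSeq windows. A pyrimidine run stood near the start in 17 of 28 (60.7%) against 38.3% of all windows. Both features were as frequent among members higher in PRMT1 OV as among the others. TATAA stood in 3 of the 11 members with a window that were called higher and in 3 of the 11 tested members that were not, and the pyrimidine run in 7 of 11 and 7 of 11. A run counted here may lie on either side of the start, and in SNHG17 and SNHG7 it ends before it. Shorter runs, as at the start of SNHG5, were not counted. The counts are therefore not counts of RNAs that begin with pyrimidines. Motifs searched over the whole window on both strands were CACGTG (the E-box of the MYC family) in 2 of 28 windows, against 7.26% of all windows, and CCGGAAG (a core of ETS sites) in 3 of 28, against 10.3%. TGACGTCA (the CRE, 1.85% of all windows) and TGATGNAA (3.62%) were in none of the 28. A match is a run of letters and not a bound site, and the windows are placed by the RefSeq start, which need not be the start used in HEK293T cells.

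The TPM value of PRMT1 (transcripts counted per length and per fixed total) was 381 ± 14.7 (SD, n = 3) in Mock and 73158 ± 11091 in PRMT1 OV, a 192-fold difference (log2 fold change of TPM + 1 = 7.57, limma adjusted p = 5.5e-08), so the PRMT1 transcript went the way the labels say in every library. Because TPM values are shares of a fixed total, this one transcript also lowers the others. Depth recovered from the TPM values was 18196736 to 23163822 reads per library. Mock 3 and PRMT1 OV 2 stood apart from the other libraries of their groups in a principal component analysis, whose first component (69.2% of the variance) separated Mock from PRMT1 OV. HEK293 and epithelial markers were tested for 8 of 8 genes and summed to 1572 to 1690.3 TPM in Mock and 1088 to 1232 TPM in PRMT1 OV. NEFL, NEFM and VIM were lower in PRMT1 OV, with log2 fold changes of -0.41, -0.77 and -0.49, and PAX2, CDH2, KRT8, KRT18 and EPCAM did not pass the test. None of 7 markers of differentiated kidney passed the filter, their sum being 0.552 to 1.16 TPM in Mock and 0.834 to 1.84 TPM in PRMT1 OV. Of 7 markers of blood, endothelium, fibroblasts and liver only COL1A1 passed the filter (log2 fold change -0.57, lower), with CD3E at 0 throughout. The list summed to 12.2 to 16.9 TPM in Mock and 9.57 to 10.5 TPM in PRMT1 OV, and the part of these differences in the host gene results was not tested.

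Of the 32 host genes, 26 reached at least 1 TPM in at least 3 libraries and were tested. Among these, 12 were higher in PRMT1 OV and 1 was lower (limma on log2(TPM + 1), Benjamini-Hochberg adjusted p under 0.05 over 15341 genes). The same call was made for 40.3% of all tested genes in the higher direction and 8.64% in the lower one, so the members' 46.2% lies near the background. The median log2 fold change of the tested members was 0.27, beside 0.30 for all tested genes and 0.33 for tested noncoding genes, of which 30.9% were higher and 5.6% lower. In either direction 49.0% of all tested genes were called, against 13 of the 26 members. The members' fold changes varied widely in size. A call with at least a 2-fold rise was made for 4 members (15.4%, against 9.96% of tested genes), and one with at least a 4-fold rise for 3 of them (11.5%, against 0.443%), both on the scale of TPM + 1. Those 3 are SNHG15, SNHG12 and SNHG17, and SNHG11 is the other, just under 4-fold on that scale (log2 fold change 1.96) and 4.66-fold in mean TPM. All 4 were under 10 TPM in Mock, where the median of all tested genes was 0.47, against 0.12 at or above 10 TPM. Shares of 2-fold and 4-fold rises among genes of like level were not computed. The members were chosen with earlier results of these data known, so these shares were given no test.

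**Figure D1:**
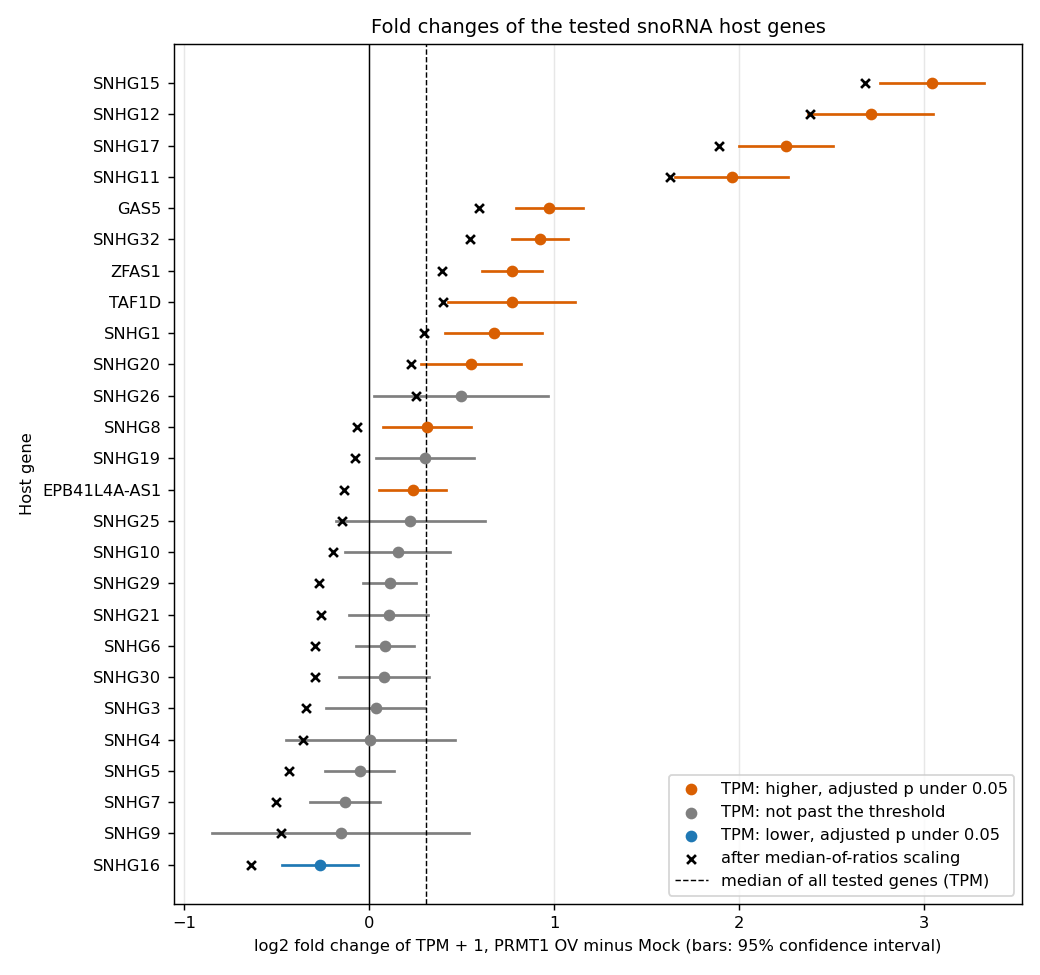
Log2 fold change of TPM + 1 (PRMT1 OV minus Mock) for each tested host gene, with bars for the 95% confidence interval, sorted by size and coloured by call, with crosses for the value after median-of-ratios scaling and a dashed line at the median of all tested genes. SNHG15, SNHG12, SNHG17 and SNHG11 lie far to the right of the other members, which spread from 0.97 for GAS5 to -0.26 for SNHG16.

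SNHG15 gave the largest difference. The host of the box H/ACA snoRNA SNORA9, it lies on chromosome 7 (44983023 to 44986961, minus strand, GRCh38). Its level was 8.19, 9.71 and 11.5 TPM in Mock and 92.4, 84.0 and 85.4 TPM in PRMT1 OV. Every PRMT1 OV library was far above every Mock library, and the difference was 8.91-fold in mean TPM (643 against 5953 reads summed over the group). The rise of 3.04 ± 0.12 (SE) on the log2 scale, with an adjusted p of 2.7e-05 (limma), ranked 10 among all genes called higher. An exact two-sided permutation test of its 6 values gave p = 0.1, the smallest p that 3 against 3 can give.

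SNHG12 is antisense in GENCODE to part of TRNAU1AP and hosts 3 box H/ACA snoRNAs and the box C/D snoRNA SNORD99. It had 2.60, 2.19 and 3.28 TPM in Mock and 23.5, 20.2 and 25.5 TPM in PRMT1 OV, again with no overlap. The rise was 2.71 ± 0.15 (SE) on the log2 scale, with an adjusted p of 5.3e-05 (limma), and the counts behind it were 207 and 1832 reads. SNHG3, the host of SNORA73A and SNORA73B, starts 77.2 kb from it on chromosome 1. SNHG3 had 58.6, 58.6 and 48.5 TPM in Mock and 53.4, 64.4 and 52.1 TPM in PRMT1 OV, and its log2 fold change was 0.03 (95% confidence interval -0.23 to 0.30). The groups overlapped at SNHG3, so of these 2 neighbours on chromosome 1 only SNHG12 passed the test.

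On chromosome 20, SNHG17 (minus strand) and SNHG11 (plus strand) run away from each other from starts 11.2 kb apart and host the related SNORA71 RNAs, SNHG11 with SNORA60 as well. SNHG17 had 10.4, 8.30 and 10.7 TPM in Mock and 51.8, 49.3 and 49.6 TPM in PRMT1 OV (log2 fold change 2.25, SE 0.11, limma adjusted p = 4.8e-05). SNHG11 had 3.41, 4.35 and 3.28 TPM in Mock and 17.3, 15.4 and 18.6 TPM in PRMT1 OV (log2 fold change 1.96, SE 0.13, limma adjusted p = 9e-05). Neither gene's groups overlapped. Their summed level with SNHG15 and SNHG12 went from 26.0 ± 2.42 TPM (SD, n = 3) to 178 ± 8.12 TPM. The sum over all 32 host genes was 1981 ± 51.7 TPM in Mock and 2609.95 ± 61.0 TPM in PRMT1 OV, a difference of 629 TPM.

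**Figure D2:**
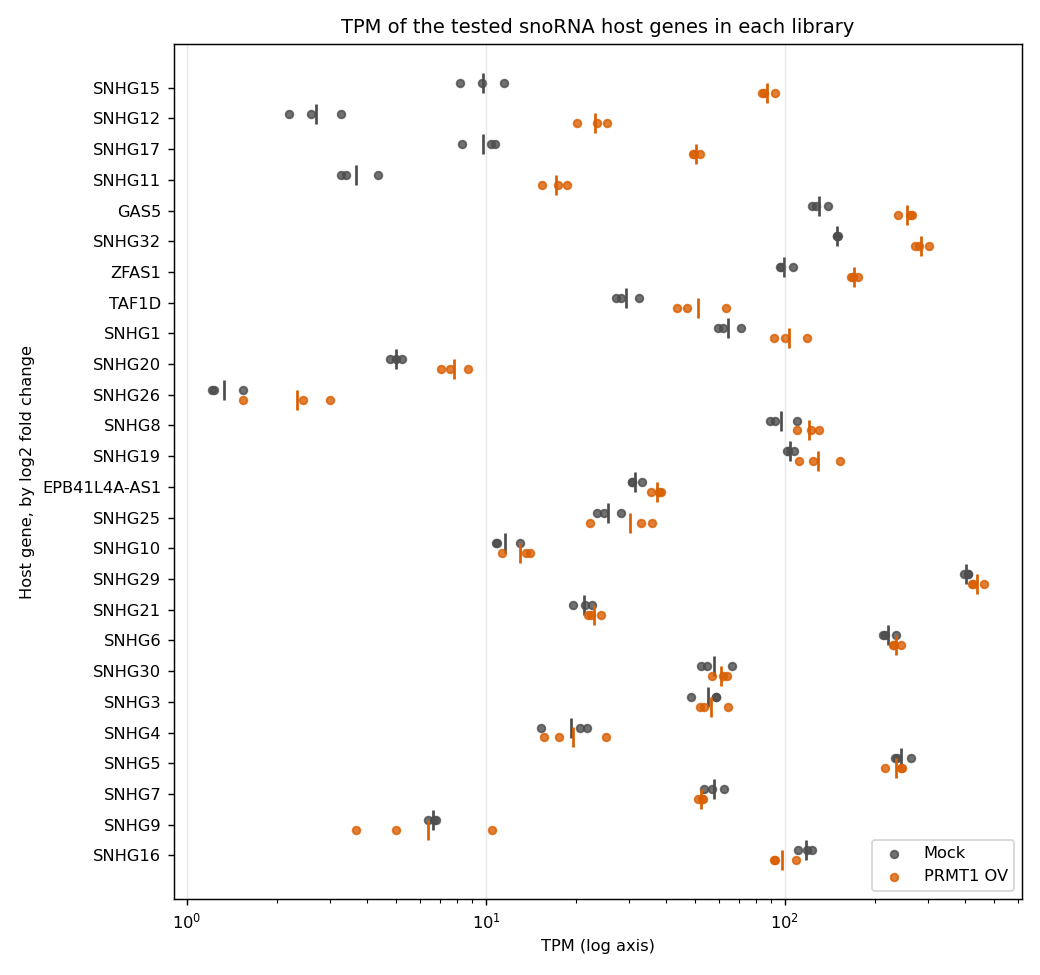
TPM of the 26 tested host genes in each of the 6 libraries on a logarithmic axis, with Mock and PRMT1 OV in different colours and a vertical tick at each group mean. SNHG15, SNHG12, SNHG17 and SNHG11 start from 2.69 to 9.80 TPM in Mock, whereas SNHG29 is the member with the highest level at 405 TPM.

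The next 3 genes are abundant. GAS5, a host of box C/D snoRNAs known from growth arrest, had 127, 123 and 139.8 TPM in Mock and 263, 265 and 238 TPM in PRMT1 OV (log2 fold change 0.97, SE 0.08, limma adjusted p = 0.000149). SNHG32, the host of SNORD48 and SNORD52 in the MHC region of chromosome 6, had 149.5, 150.3 and 149.6 TPM in Mock and 273, 302 and 280.3 TPM in PRMT1 OV (log2 fold change 0.92, SE 0.06, limma adjusted p = 0.000103). ZFAS1, the host of the SNORD12 RNAs that begins head to head with ZNFX1, had 96.7, 95.9 and 106 TPM in Mock and 176, 167 and 169 TPM in PRMT1 OV (log2 fold change 0.77, SE 0.07, limma adjusted p = 0.000221). The groups of all 3 genes stood clear of each other.

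TAF1D and SNHG1 rose by less, with wider spread. TAF1D had 27.2, 28.3 and 32.5 TPM in Mock and 47.0, 63.4 and 43.4 TPM in PRMT1 OV (log2 fold change 0.77, SE 0.15, limma adjusted p = 0.00422), and PRMT1 OV 2 was the high library. SNHG1, the host of SNORD22, SNORD25 to SNORD28 and SNORD30, had 62.0, 59.7 and 71.2 TPM in Mock and 99.9, 118 and 91.9 TPM in PRMT1 OV (log2 fold change 0.67, SE 0.11, limma adjusted p = 0.00241). SNHG20, the host of SCARNA16, went from 4.99 ± 0.23 to 7.80 ± 0.83 TPM (SD, n = 3; log2 fold change 0.55, limma adjusted p = 0.00638). Each of the 3 was higher in every PRMT1 OV library than in any Mock library.

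SNHG8 and EPB41L4A-AS1, hosts of SNORA24 and SNORA13, passed the test by a small margin. SNHG8 went from 97.1 ± 10.9 to 121 ± 10.2 TPM (log2 fold change 0.31, limma adjusted p = 0.0372), but its groups overlapped, since Mock 2 had 109 TPM and PRMT1 OV 2 had 109 TPM. EPB41L4A-AS1 went from 31.6 ± 1.44 to 37.3 ± 1.40 TPM (log2 fold change 0.23, limma adjusted p = 0.0404), with no overlap. SNHG16, the host of the SNORD1 RNAs, was the one member that fell. Its level was 111, 123 and 119 TPM in Mock and 92.3, 109 and 92.2 TPM in PRMT1 OV (log2 fold change -0.26, SE 0.09, limma adjusted p = 0.0393), so every PRMT1 OV library was below every Mock library. All 3 calls sat close to the threshold, and each was lost in at least 7 of 16 alternative analyses.

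The most abundant members were among those that did not pass. SNHG29, the host of SNORD49A, SNORD49B and SNORD65, had 409, 409.995 and 396 TPM in Mock and 427, 463 and 422 TPM in PRMT1 OV, a log2 fold change of 0.11 (95% confidence interval -0.03 to 0.25). SNHG5 had 237, 234 and 263 TPM in Mock and 247, 245 and 216 TPM in PRMT1 OV (log2 fold change -0.05, interval -0.24 to 0.13). SNHG6, the host of SNORD87, had 216, 212 and 236 TPM in Mock and 244, 232 and 229 TPM in PRMT1 OV (log2 fold change 0.09, interval -0.07 to 0.24). Any 2-fold difference at these 3 genes lies outside the intervals.

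SNHG7, the host of SNORA17A and SNORA17B, had 53.6, 57.0 and 62.5 TPM in Mock and 51.3, 52.8 and 53.4 TPM in PRMT1 OV (log2 fold change -0.13, limma adjusted p = 0.21), with every PRMT1 OV value below every Mock value. SNHG19, the host of SNORD60, had 102, 102 and 107 TPM in Mock and 124, 111 and 152 TPM in PRMT1 OV (log2 fold change 0.30, limma adjusted p = 0.0594), with no overlap in the other direction. In total the groups did not overlap at 14 members in the higher direction and 2 in the lower, beside 49.8% and 11.6% of all tested genes. SNHG26, the host of SNORD93, went from 1.33 to 2.33 TPM (log2 fold change 0.49, limma adjusted p = 0.0757).

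SNHG30, the host of SNORD7, went from 57.9 to 61.0 TPM (0.08), and SNHG25, the host of SNORD104, from 25.5 to 30.4 TPM (0.22). SNHG4, the host of SNORA74A, went from 19.2 to 19.5 TPM (0.00), and SNHG9, the host of SNORA78, from 6.63 to 6.39 TPM (-0.16, interval -0.85 to 0.54), the widest interval of the group. The scaRNA hosts SNHG10 and SNHG21 had log2 fold changes of 0.15 and 0.10, from 11.6 to 13.0 TPM and from 21.3 to 22.9 TPM. None of these 6 members passed the test. Per library, those with a mean of at least 10 TPM ranged from 52.3 to 66.4 TPM for SNHG30, 22.3 to 35.9 TPM for SNHG25, 15.2 to 25.2 TPM for SNHG4, 10.8 to 14.1 TPM for SNHG10 and 19.6 to 24.3 TPM for SNHG21.

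The 6 members below the filter had few reads. SNHG18 and SNHG27 were at 0 in all libraries, where 3 reads would have been 0.459 to 0.526 TPM for a transcript of 1 kb. SNHG14, the long imprinted transcript that carries the SNORD115 and SNORD116 clusters, had 1 read in Mock and 2 in PRMT1 OV. SNHG28 had 4 and 10 reads, SNHG31 had 7 and 15, and SNHG22 had 15 and 35, too few to compare.

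By snoRNA class, 5 of 9 tested box H/ACA hosts were higher and none lower (median log2 fold change 0.23), and 3 of 10 tested box C/D hosts were higher and 1 lower (median 0.21). Hosts of both kinds were higher in 2 of 3 tested and scaRNA hosts in 1 of 3 tested. Of all tested genes 40.3% were higher and 8.64% lower, with a median of 0.30, and the classes hold few genes. Of the 4 largest differences 3 belonged to box H/ACA hosts and the other to SNHG12, which holds both kinds. The other box H/ACA hosts, SNHG3, SNHG4, SNHG7, SNHG8, SNHG9 and EPB41L4A-AS1, had log2 fold changes between -0.16 and 0.31, so the class spanned nearly the whole range of the members. After scaling 3 box H/ACA hosts were higher and 2 lower, and 2 box C/D hosts were higher and 3 lower. The shares of all tested genes were then 22.5% higher and 25.5% lower. These classes were formed with the fold changes known and were given no test.

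Across the 26 tested members the fold change went with the level in Mock by a Spearman correlation of -0.30, beside -0.39 across all tested genes, and with exonic length by 0.11, GC content by 0.09, the number of snoRNA genes inside by 0.15 and the largest number of exons of a transcript by 0.32. These are descriptions over genes of the same 6 libraries. Of 7 tested members under 10 TPM in Mock, 5 were higher (median log2 fold change 1.96, beside 0.47 for all genes under 10 TPM, of which 46.9% were higher). Of 19 at or above 10 TPM, 7 were higher (median 0.15, beside 0.12 for all such genes, of which 32.3% were higher).

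**Figure D3:**
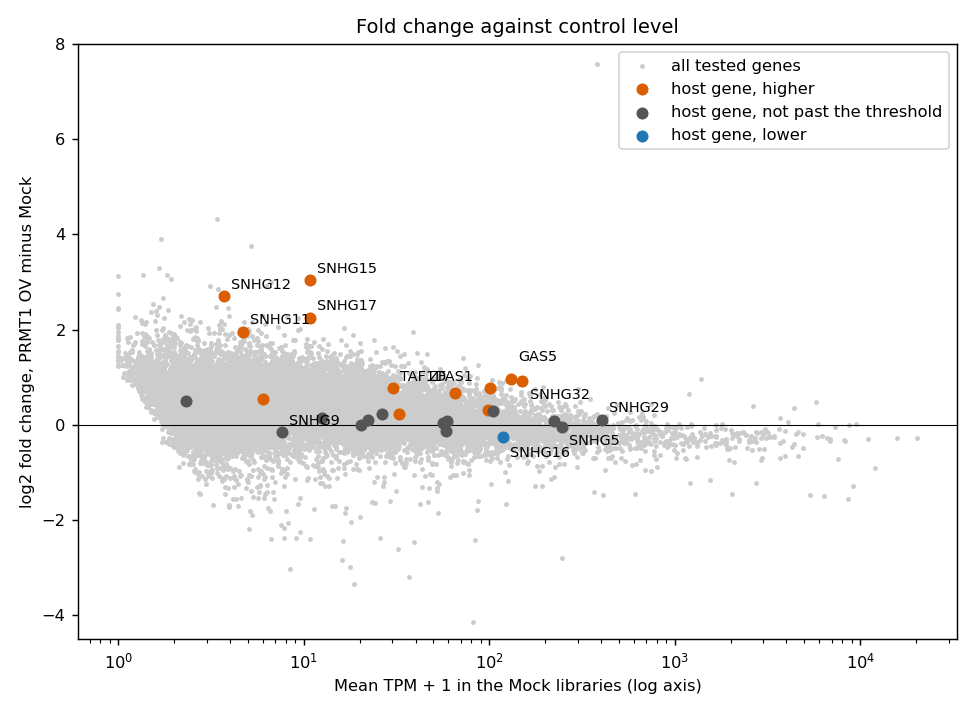
Log2 fold change of TPM + 1 against the mean TPM + 1 in Mock, on a logarithmic axis, for all 15341 tested genes (grey) and the tested host genes (coloured by call). Among genes of the same Mock level SNHG15, SNHG12, SNHG17 and SNHG11 lie at the upper edge of the cloud, whereas SNHG29, SNHG5 and SNHG6, the hosts with the highest levels in Mock, lie near 0.

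The calls depended on how libraries were scaled. When each library was scaled by the median of ratios, which moved the median of all genes from 0.30 to -0.01, 8 members were higher (background 22.5%) and 5 lower (25.5%), and their median was -0.11. With quantile normalization 10 were higher (20.3%) and 1 lower (19.4%). The 8 members higher after scaling were SNHG15 (2.68), SNHG12 (2.38), SNHG17 (1.89), SNHG11 (1.63), GAS5 (0.59), SNHG32 (0.54), TAF1D (0.40) and ZFAS1 (0.39). They were called higher in all 16 alternatives, as were 19.9% of the 10289 genes present in every fit, beside 32% of the 25 members present in every fit. The 5 called lower after scaling were SNHG16 (-0.64), SNHG7 (-0.51), SNHG5 (-0.43), SNHG3 (-0.34) and SNHG29 (-0.27). SNHG29 was instead called higher with quantile normalization (0.31) and without PRMT1 (0.22), so its call went both ways. SNHG1 (0.30) and SNHG20 (0.22) kept their sign and lost the call, and SNHG8 (-0.07) and EPB41L4A-AS1 (-0.14) changed sign. The summed level of the 32 genes differed by 21.7 TPM after scaling. With PRMT1 taken out of the total and the rest rescaled, 16 members were higher and none lower, beside 7601 and 880 of all genes. The filter was applied anew to the rescaled values, so the number of genes tested may differ from 15341 and no share is given. The 16 members therefore cannot be read as more than the background. The members' median was then 0.37, beside 0.40 for all genes, and the sum over the 32 genes differed by 834 TPM. Without Mock 3 and PRMT1 OV 2, the libraries that stood apart, 15 members were higher and 3 lower, beside 5703 and 2115 of 15341 genes.

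Mature snoRNAs have no poly(A) tail, and these poly(A)-selected libraries held few reads on them. Of 151 snoRNA genes inside a member, 133 were at 0 in every library, and all 151 together had 175 reads in Mock and 163 in PRMT1 OV. SNHG14, itself nearly without reads, holds 84 of the 151. Outside SNHG14, 49 of 67 were at 0. Of the 151, 10 reached 1 TPM in 3 libraries. SNORD104, inside SNHG25, had more reads than any other, 65 in Mock and 74 in PRMT1 OV. Counting a snoRNA as called if its adjusted p was under 0.05, SNORD99 (1 against 5 reads) and SNORA60 (3 against 14) were higher, and SNORA71A (18 against 0) and SNORD12B (7 against 1) were lower. Each of these reached 1 TPM in 3 libraries only with the group in which it was high, SNORA71A through Mock alone. The filter thus favoured these calls, and they do not show a difference by themselves. SNORA73B (18 against 5 reads), SNORA71B (28 against 14), SNORA71C (9 against 17), SNORA71D (14 against 11) and SNORD12C (4 against 8) did not pass. After scaling none was called higher and 3 were called lower, SNORA71A, SNORD12B and SNORA71B. These counts are too small for a fold change of a snoRNA, and they cannot be told apart from reads of unspliced host RNA.

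SNORA71A and SNORA71C are printed because they lie inside the same host gene, SNHG17, and their summed reads went opposite ways. SNORA71C (9 against 17 reads) did not pass the test and its groups overlapped, so a rise is not shown for it. The sequences are those of the GENCODE 29 transcripts (GRCh38), 134 bases each, 5′ to 3′ on the minus strand. Capitals mark the ACA box, at which each annotated entry ends. In a pairwise alignment 83.1% of the columns were identical.
SNORA71A (chr20:38427309-38427442): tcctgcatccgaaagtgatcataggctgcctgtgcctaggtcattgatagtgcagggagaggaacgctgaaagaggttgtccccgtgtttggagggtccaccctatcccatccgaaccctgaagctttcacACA
SNORA71C (chr20:38429670-38429803): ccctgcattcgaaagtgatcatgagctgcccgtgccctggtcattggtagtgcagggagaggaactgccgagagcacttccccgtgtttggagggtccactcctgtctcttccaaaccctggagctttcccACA
Reads on these close copies may be shared or dropped by counting, so the values of single SNORA71 genes are uncertain. In TPM, SNORA71A had 7.15, 10.0 and 5.09 in Mock and 0 in all 3 PRMT1 OV libraries, where up to 3 reads in the group could have been missed. It passed the filter through the Mock libraries alone, so its call as lower was favoured by the filter.

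The gene lists around the members were chosen from general knowledge with earlier results of these data known, so each is described beside the median of all tested genes, 0.30. Of all tested genes 40.3% were higher and 8.64% lower, and after scaling 22.5% were higher and 25.5% lower. The counts of each list are to be read beside these shares. Among 53 protein-coding genes that host snoRNAs, 12 were higher and 17 lower (median log2 fold change -0.09). EIF5, a GTPase activator in translation initiation, rose from 10.0 to 49.2 TPM (2.18), NOP58 from 37.9 to 150.05 TPM (1.95), WDR43 from 26.4 to 83.9 TPM (1.62) and NOP56 from 58.6 to 108 TPM (0.87). The 4 that fell with the smallest p were the ribosomal protein genes RPL10 (-0.36), RPL7A (-0.47), RPS2 (-0.28) and RPS3 (-0.33). After scaling 5 were higher and 35 lower.

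Of 8 core snoRNP proteins, 4 were higher and 1 lower (median 0.20). NOP58 (1.95) and NOP56 (0.87), of the box C/D particle, and DKC1 (0.49) and GAR1 (0.51), of the box H/ACA particle, were higher, and NHP2 (-0.41) was lower. FBL (-0.15) and SNU13 (-0.16), also of the box C/D particle, did not pass, with every PRMT1 OV value below every Mock value. After scaling 2 were higher and 4 lower, DKC1 and GAR1 having lost the call. FBL (-0.53) and SNU13 (-0.54) were among those lower after scaling. Of 13 assembly factors, 9 were higher and 1 lower (median 0.50), with COIL, the Cajal body scaffold, at 1.79, NUFIP1 at 1.44, the cap methyltransferase TGS1 at 1.38 and SHQ1 at 1.09, and TCOF1, a nucleolar factor of ribosomal RNA transcription, at -0.39. After scaling, 6 of them were higher and 3 lower.

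Of 15 NMD factors, 9 were higher and none lower (median 0.56). The 4 with the smallest p were SMG9 (1.29), SMG8 (1.20), SMG5 (1.04) and UPF2 (0.89). Of 18 genes with transcripts known as NMD targets, 10 were higher and 4 lower (median 0.26). CARS1 (1.41), SRSF6 (1.23), TBL2 (1.20) and SRSF3 (0.98) were higher, and GADD45B (-1.10), GADD45A (-0.70), DDIT3 (-0.70) and ATF3 (-0.24) were lower. Several of these are also genes of the stress response. The listed genes thus went both ways, and after scaling 6 were higher and 6 lower. These are values per gene, which do not separate the transcripts open to NMD from the others of the same gene. For the NMD factors the counts after scaling were 6 and 3.

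Of 8 snoRNA-processing enzymes, 7 were higher and none lower (median 0.74), among them the debranching enzyme DBR1 (1.09), PARN (0.73), MTREX (0.77) and EXOSC10 (0.55). Of 10 regulators of mRNAs with a pyrimidine start, 6 were higher and 2 lower (median 0.51). LARP4 (1.22), RPTOR (0.69), LARP1 (0.51) and RPS6KB1 (0.79) were higher, and CNBP (-0.34) and EIF4EBP1 (-0.25) lower, EIF4EBP1 turning to 0.068 with the GC correction. All 8 polymerase I initiation partners of TAF1D were higher (median 1.11), among them TBP (1.31), RRN3 (1.14), TAF1A (1.21) and TAF1B (1.08). TAF1A, TAF1B, TAF1C, POLR1A and POLR1B, most of these partners, were under 10 TPM in Mock, where 46.9% of all tested genes were higher. After scaling 6 of the 8 partners of TAF1D kept the call, and 5 of the 8 processing enzymes did. Of the 10 regulators 3 were then higher and 2 lower. Of 10 tested noncoding genes outside the set with a snoRNA gene inside, 5 were higher and none lower (median 0.35), namely UBA6-DT (0.57), AC135983.1 (0.76), SCARNA9 (0.69), ANKRD17-DT (1.14) and TMEM161B-DT (0.38). After scaling 2 of the 10 were higher and 2 lower.

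**Figure D4:**
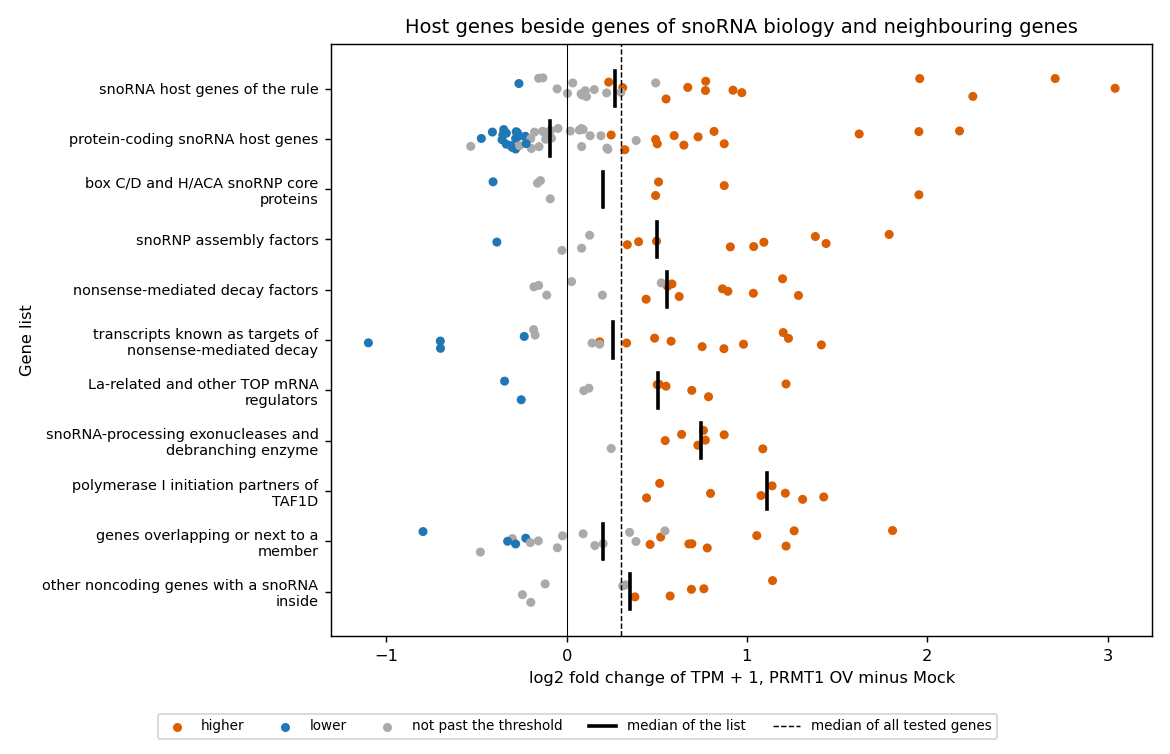
Log2 fold change of TPM + 1 (PRMT1 OV minus Mock) for each tested gene of the host gene set and of the lists described in the text, coloured by call, with a black bar at each list's median and a dashed line at the median of all tested genes. Among the lists plotted, which leave out the snoRNA genes themselves, the protein-coding hosts have the lowest median, -0.09, and the polymerase I partners of TAF1D the highest, 1.11.

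Genes that overlap a member or start within 5 kb of its start were read beside it, because the counting's use of strand is not given in the sources used here and reads in shared bases then cannot be told apart. Of 25 tested, 9 were higher and 4 lower (median 0.20), and after scaling 7 were higher and 8 lower. The shares of all tested genes were 40.3% and 8.64%, and after scaling 22.5% and 25.5%. SLC3A2, which starts 188 bases from SNHG1 on the opposite strand and encodes an amino acid transporter subunit, rose from 109 to 187 TPM (0.78), beside 0.67 for SNHG1. CEP295, C11orf54 and MED17, neighbours of TAF1D on the opposite strand, were higher by 1.81, 1.05 and 0.46, and the start of MED17 is 164 bases from that of TAF1D. In GENCODE 29 TAF1D shares 6.07% of its exonic bases with genes on the other strand. ZFAS1 shares 26.1% with the other strand and 20.9% with genes on its own, snoRNA genes included. SNHG16 shares 30.6% with the other strand, and SNHG32 shares 29.1% with genes on its own. SNHG15, SNHG12, SNHG17 and SNHG11 share at most 0.188% with the other strand and at most 9.35% with their own.

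EPB41L4A, which shares 49.6% of the exonic bases of EPB41L4A-AS1 on the opposite strand, was higher (0.52, from 1.13 to 2.05 TPM), far below the level of its antisense partner. TRNAU1AP, opposite SNHG12, was higher by 0.69, with 8 shared exonic bases. BARD1 (1.26) and UBE3A (0.68) were higher beside SNHG31 and SNHG14, members that were not tested. GLRX5 (-0.23, opposite SNHG10), RPS2 (-0.28, beside SNHG9), TRAF7 (-0.33, beside SNHG19) and the pseudogene AL355987.5 (-0.80, beside SNHG7) were lower. ZNFX1, head to head with ZFAS1, did not pass (0.35, limma adjusted p = 0.0667), and RCC1, which starts 37 bases from SNHG3, did not either (0.09).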

How the data were processed

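Poly(A)-selected RNA from 3 Mock and 3 PRMT1 OV samples of HEK293T cells was analysed from the deposited table of TPM values, 1 column per library, made by the authors. The submitters' processing notes name STAR 2.5.2b, Trimmomatic 0.36, Subread 1.5.2, featureCounts and build GRCh38. The annotation, strand setting and TPM formula were not given in the sources used here. Identifiers were matched to symbols with a gene name table (40907 of 57500) and to GENCODE 29 (56898). The 15341 genes reaching 1 TPM in 3 or more libraries were tested with limma 3.58.1 (R 4.3.3; trend, no covariate) on log2(TPM + 1) and Benjamini-Hochberg adjustment at 0.05 over all of them. Fold changes on this scale understate low genes. Permutation tests used scipy 1.17.1 with Python 3.11.15. The fit was tested on simulated data. TPM times exonic length gave whole reads, within 0.05, for 95.5 to 95.7% of low values; these reads describe depth only and cover counting error only.

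The alternatives were quantile normalization, median-of-ratios scaling, a GC correction in 20 bins, removal of PRMT1 from the total, pseudocounts of 0.1 and 5 TPM, a 5 TPM filter, no filter, the replicate number as a block, leaving out each library, and leaving out Mock 3 and PRMT1 OV 2 together, which was added after seeing the data. Every member is accounted for; per-library values were given for tested members whose mean reached 10 TPM in either group, and in each list up to 4 genes per direction with the smallest p were named. The members and lists were chosen with earlier results of these data known. Some named items are not reported here.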

Additional observations from a re-analysis of the deposited data

How the results depend on the processing

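Over the 16 alternatives, 338 of 415 values of single members kept their direction and side of the threshold, 24 lost the call, 18 gained one and 35 changed sign. Of the 12 members called higher, 8 kept the call in all 16; none of the others did, and the cause was not tested. The members' median, 0.27, was 0.21 with a pseudocount of 5 TPM, 0.14 with quantile normalization, 0.37 without PRMT1, 0.32 without the 2 libraries that stand apart, and -0.11 with median-of-ratios scaling; leaving out 1 library gave 0.22 to 0.36. The number of members called lower was 1, and was 0 with no filter and without PRMT1, 5 with median-of-ratios scaling, 3 without the 2 libraries and 0 to 1 when 1 library was left out. Genes called higher numbered 6190, and 3448 (median of ratios) or 3109 (quantile); genes called lower numbered 1325, and 3913, 2979, 880 (without PRMT1) or 2115 (without the 2 libraries). The summed TPM differed by 629, and by 21.7 with median of ratios or 834 without PRMT1.

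With median-of-ratios scaling the sign changed for SNHG3 (-0.34), SNHG8 (-0.067), EPB41L4A-AS1 (-0.14), SNHG4 (-0.36), SNHG6 (-0.29), SNHG10 (-0.20), SNHG21 (-0.26), SNHG19 (-0.077), SNHG29 (-0.27), SNHG30 (-0.29) and SNHG25 (-0.15). With quantile normalization it changed for SNHG3 (-0.10), EPB41L4A-AS1 (-0.020), SNHG4 (-0.34), SNHG5 (0.055), SNHG10 (-0.26), SNHG21 (-0.22), SNHG30 (-0.046) and SNHG25 (-0.073). Without PRMT1 it changed for SNHG5 (0.056), and with the GC correction for SNHG4 (-0.10), SNHG6 (-0.026), SNHG7 (0.19), SNHG9 (0.16), SNHG30 (-0.032) and EIF4EBP1 (0.068). Leaving out 1 library, the sign changed for SNHG3 (-0.060 to 0.089) and SNHG4 (-0.19 to 0.14) without Mock 3 or PRMT1 OV 2, for SNHG5 (-0.087 to 0.0095) without Mock 3 or PRMT1 OV 3, and for SNHG9 (-0.53 to 0.12) without PRMT1 OV 2. Leaving out both libraries that stand apart changed SNHG3 (-0.15), SNHG4 (-0.34) and SNHG9 (0.14). Deviations from the group mean correlated by -0.033, 0.059 and 0.020 between same-numbered libraries, and by -0.077 to 0.068 between the others. No pairing by number was seen, but with so few libraries these values cannot tell if the numbers pair the samples. With the replicate number as a block 11 members were higher and 1 lower, and 6275 genes were higher and 1314 lower.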

Other observations

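LINC00888, which RefSeq names SNHG33 but the name table used for the rule does not, was left out of the 32 genes. It had 9.29, 10.3 and 10.3 TPM in Mock and 11.8, 16.1 and 13.7 TPM in PRMT1 OV (log2 fold change 0.43, limma adjusted p = 0.0263). Every PRMT1 OV library was above every Mock library. DANCR, another noncoding host of a snoRNA with no SNHG name, went from 98.6 ± 11.7 to 85.5 ± 5.37 TPM (SD, n = 3) and did not pass (log2 fold change -0.20, limma adjusted p = 0.133), but was called lower after median-of-ratios scaling (-0.58).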
